A study of Mus musculus with 10 samples.

Results

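The report covers 10 genes of the extracellular matrix and its cells, Col1a1, Col1a2, Col3a1, Col4a1, Sparc, Dcn, Igfbp7, Fn1, Bgn and Pecam1, among 34932 annotated genes measured in sorted T cells. They were chosen by name with measured values of the same libraries known, including the contrast between MIT-BATF and MIT-Empty, so their levels are given as a description with no test. RNA was measured in Pmel CD8+ T cells, whose transgenic receptor recognizes gp100, a protein of melanoma cells, recovered from B16-F10 melanomas of mice 7 days after transfer. The question was what raising BATF, an AP-1 family transcription factor, changes in these cells. There were 5 libraries labelled MIT-BATF and 5 labelled MIT-Empty. By the study's methods, each came from 2000 live, Thy1.1+ cells sorted from 1 mouse. They were made by a modified SMART-Seq2 protocol and read as 37 bp pairs.

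In the MIT-BATF group the Pmel Thy1.2/Thy1.2 T cells carried a retrovirus, MSCV-IRES-Thy1.1 (MIT), holding the mouse BATF open reading frame. In the MIT-Empty group they carried the same vector without it. The T cells of both groups were splenocytes stimulated for 24 h with the peptide in the presence of IL-2 (10 IU/mL), transduced, and then expanded with IL-2 at 50 IU/mL and with IL-7 and IL-15, each at 10 ng/mL, before transfer into Ly5.1 (CD45.1) recipients. Animals of both sexes aged 8 to 12 weeks were used in the study, and the recipients kept their own T cells, stroma and tumor. Immune cells were first enriched from digested tumors on a density gradient and then sorted on Thy1.1 and a live-cell dye. Batf, the gene the vector carries, averaged 21.9 ± 5.54 CPM (counts relative to TMM-scaled library size) over libraries labelled MIT-BATF, against 29.2 ± 14.8 CPM over libraries labelled MIT-Empty (SD, n = 5 each). It was thus no higher in the libraries labelled MIT-BATF (log2 fold change -0.41, edgeR with Benjamini-Hochberg adjusted p = 0.522). Whether reads of the vector were assigned to Batf was not tested. All groups and directions below follow the labels alone.

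Fibroblasts build the matrix of a tumor by secreting fibrillar collagens, which assemble into fibers with the help of small proteoglycans and adhesive glycoproteins. Sheets of basement membrane, rich in type IV collagen, surround vessels, and endothelial cells line them. T cells are not a usual source of fibrillar collagen, although they carry receptors for matrix and can make some secreted proteins of this class.

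The libraries held between 10702740 and 34102086 estimated counts in MIT-BATF and between 6534472 and 21355657 in MIT-Empty. A level of 3 counts, taken as the floor below which a gene is not measured in a library, was 0.0695 to 0.294 CPM in MIT-BATF libraries, against 0.123 to 0.485 CPM in MIT-Empty libraries. Of mitochondrial transcripts, MIT-BATF replicate 1 held 33.2% of its counts against 11.5% to 15.1% in the other MIT-BATF libraries and 15.5% to 23.1% in the MIT-Empty libraries. The sum over 9 CD8 T cell markers ran from 2821 to 4778 CPM in MIT-BATF and from 3196 to 5012 CPM in MIT-Empty. By edgeR with Benjamini-Hochberg adjustment 0 of these 9 genes passed the threshold of 0.05, 0 had an unadjusted p under 0.05, and DESeq2 and limma voom also called 0 with 1 unadjusted p under 0.05 each.

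The 10 libraries do not stand apart from each other as 10 separate samples would. Gene by gene, MIT-BATF replicates 4 and 5 lay within replicates 2 and 3, and MIT-Empty replicates 4 and 5 lay within replicates 2 and 3. In these 4 pairs the smaller library exceeded the larger in 0.286% to 0.661% of genes with at least 5 counts, whereas the other pairs did so in at least 3.54% of them. Results are therefore given as deposited and with shared reads counted once, in which each contained library was subtracted from the one that holds it. Whether nested counts come from the same reads was not examined, and SDs over nested libraries would be too small if they do. The nesting also shows how much of a transcript in the larger library of a pair lies in the smaller one.

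The members fell into 3 patterns. Col1a1, Col1a2, Col3a1 and Sparc were concentrated in MIT-Empty replicate 4 and in replicate 2, which contains it. Igfbp7 had 5 to 17 counts in the MIT-BATF libraries and 104 to 1202 in the MIT-Empty libraries. Fn1 and Pecam1 were counted in every library of both groups. Dcn and Bgn lay between the first and the second pattern, and Col4a1 had at most 9 counts in any library.

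**Figure D1:**
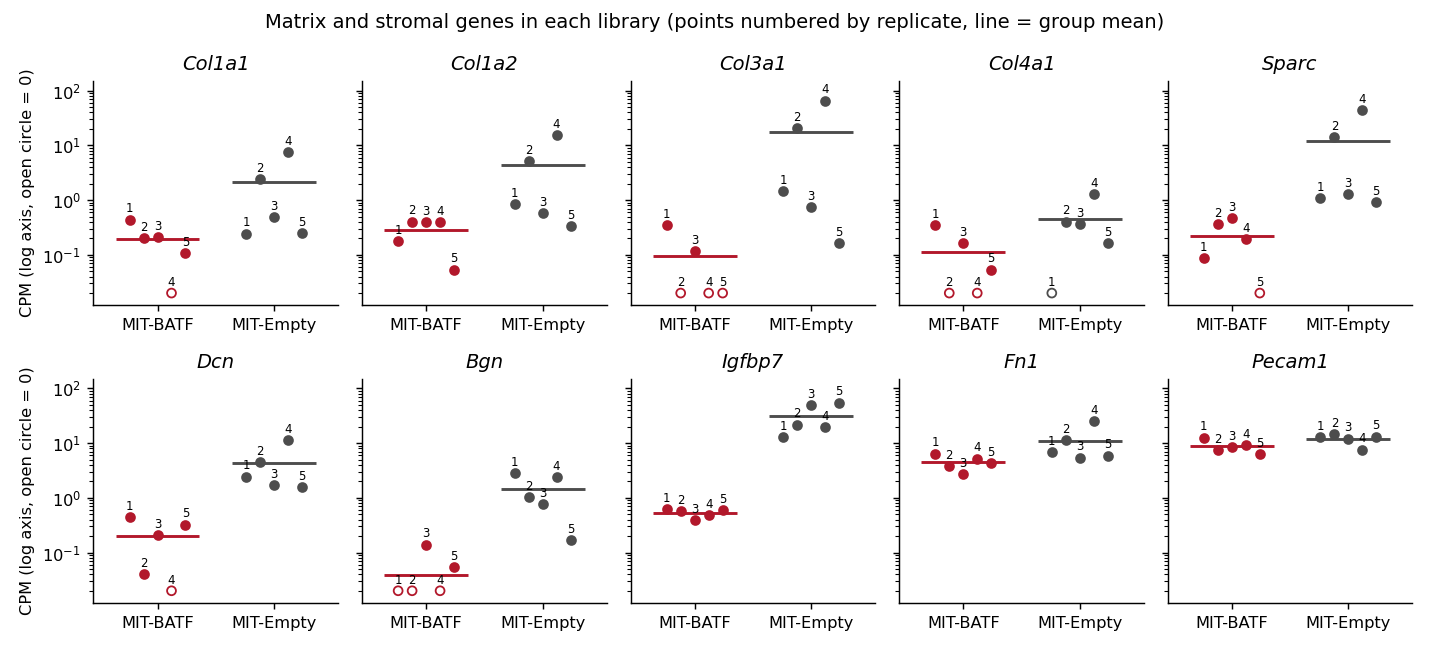
Level of each gene in CPM on a log axis in the 5 MIT-BATF and 5 MIT-Empty libraries, with points numbered by replicate, open circles for 0 counts and a line at the group mean. Igfbp7 lies at 0.614 CPM or less in every MIT-BATF library and at 12.7 CPM or more in every MIT-Empty library, while Col3a1 exceeds 20 CPM only in MIT-Empty replicates 2 and 4.

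To show the gene starts behind the first and the second pattern, the 250 bases before the RefSeq start of Col1a2, Col3a1 and Igfbp7 follow, 5′ to 3′ on the coding strand of GRCm38.p6. RefSeq promoters were at hand for 6 of the 10 genes. They lie at chr6:4505368-4505617 on the plus strand, chr1:45311288-45311537 on the plus strand and chr5:77408046-77408295 on the minus strand. Capitals mark short promoter motifs. The TATA box was searched as TATAAA. For the CCAAT box its own letters were searched. The GC box, which binds Sp-family factors, was searched as GGGCGG. Each was searched on both strands, and a match on the other strand stands as its reverse complement.
Col1a2: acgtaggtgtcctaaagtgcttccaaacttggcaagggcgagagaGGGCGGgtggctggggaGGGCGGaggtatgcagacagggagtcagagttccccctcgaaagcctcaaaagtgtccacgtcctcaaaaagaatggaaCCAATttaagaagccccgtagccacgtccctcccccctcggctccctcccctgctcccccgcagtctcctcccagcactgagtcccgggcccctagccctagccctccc
Col3a1: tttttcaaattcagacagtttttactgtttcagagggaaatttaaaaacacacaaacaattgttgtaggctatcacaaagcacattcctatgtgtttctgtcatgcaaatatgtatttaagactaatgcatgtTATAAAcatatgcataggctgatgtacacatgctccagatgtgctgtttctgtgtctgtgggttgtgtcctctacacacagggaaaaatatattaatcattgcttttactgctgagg
Igfbp7: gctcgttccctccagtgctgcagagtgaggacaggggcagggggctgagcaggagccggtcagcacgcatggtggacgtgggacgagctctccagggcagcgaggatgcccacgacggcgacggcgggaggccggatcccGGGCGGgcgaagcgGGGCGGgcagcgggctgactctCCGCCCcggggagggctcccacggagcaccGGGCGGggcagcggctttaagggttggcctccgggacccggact
The Igfbp7 window held 4 GC box matches, the Col1a2 window held 2 and a CCAAT box match, and the Col3a1 window held a TATA box match. Among 32851 mouse promoters of this length, 32.7% held a GC box match, 33.8% a CCAAT box match and 12.4% a TATA box match. These are letter matches only, and no binding was measured.

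Col3a1 encodes the single chain of type III collagen, a fibrillar collagen of soft tissue. The gene lies on chromosome 1 of GRCm38 from 45311538 to 45349706, plus strand. It had 4, 0, 5, 0 and 0 counts in MIT-BATF replicates 1 to 5, against 12, 409, 18, 406 and 2 counts in MIT-Empty replicates 1 to 5. MIT-Empty replicates 2 and 4 therefore held nearly all Col3a1 counts, and the groups overlapped, with 0.351 CPM in MIT-BATF replicate 1, against 0.166 CPM in MIT-Empty replicate 5. The means were 0.0934 ± 0.153 CPM in MIT-BATF, against 17.7 ± 28.1 CPM in MIT-Empty, a log2 ratio of -7.57. All Col3a1 counts of both groups fell on its protein-coding transcripts.

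Col1a1 and Col1a2 encode the 2 chains of type I collagen, the main collagen of skin and tendon. Col1a1 (chromosome 11, 94936224 to 94953042, plus strand) had 5, 5, 9, 0 and 2 counts in MIT-BATF and 2, 47, 12, 46 and 3 counts in MIT-Empty. Col1a2 (chromosome 6, 4504814 to 4541544, plus strand) had 2, 10, 17, 4 and 1 counts in MIT-BATF and 7, 101, 14, 94 and 4 counts in MIT-Empty. In both genes MIT-Empty replicates 2 and 4 were highest. MIT-Empty replicates 1, 3 and 5 had 0.245, 0.491 and 0.249 CPM of Col1a1, where MIT-BATF reached 0.439 CPM. Of Col1a2 they had 0.857, 0.573 and 0.332 CPM, where MIT-BATF reached 0.405 CPM. Col1a1 averaged 0.192 ± 0.162 CPM in MIT-BATF, against 2.16 ± 3.08 CPM in MIT-Empty, and Col1a2 averaged 0.284 ± 0.161 CPM in MIT-BATF, against 4.42 ± 6.34 CPM in MIT-Empty. In MIT-Empty the SD of each of these 3 collagen genes was larger than its mean.

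Sparc encodes a collagen-binding matricellular glycoprotein (chromosome 11, 55394500 to 55423183, minus strand). It had 1, 9, 20, 2 and 0 counts in MIT-BATF and 9, 275, 31, 270 and 11 counts in MIT-Empty. Replicates 2 and 4 again held most MIT-Empty counts, but here every MIT-BATF library, from 0 to 0.464 CPM, was below every MIT-Empty library, from 0.913 to 43.6 CPM. With shared reads counted once this no longer held, because MIT-BATF replicate 3, at 0.871 CPM, lay above MIT-Empty replicate 2, at 0.485 CPM. Of its counts, 30.3% in MIT-BATF and 97.3% in MIT-Empty lay on protein-coding transcripts, and the rest was assigned to transcripts of other types, mainly those that retain an intron.

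The nested pair shows how far the first pattern rests on 1 library. Of the counts in MIT-Empty replicate 2, replicate 4 held 31.8% over all genes but 406 of 409 (99.3%, 95% Wilson interval 97.9% to 99.8%) for Col3a1. The corresponding shares were 46 of 47 for Col1a1, 94 of 101 for Col1a2, 270 of 275 for Sparc and 8 of 8 for Col4a1. The T cell genes Cd8a and Cd3e lay at 29.7% and 27.0%, near the share of all genes. These intervals cover counting error only. With shared reads counted once, Col3a1 in MIT-Empty was left with 12, 3, 16, 406 and 2 counts, by far the most in replicate 4. Replicates 1 and 3, at 1.58 and 1.38 CPM, still lay above MIT-BATF, which reached 0.377 CPM. The 3 fibrillar collagen genes then summed to 1.04, 0.827, 1.22, 0.421 and 0.174 CPM in MIT-BATF, against 2.77, 0.89, 3.02, 95.3 and 0.804 CPM in MIT-Empty. Apart from replicate 4, MIT-Empty replicates 1 and 3 lay above every MIT-BATF library, and replicates 2 and 5 lay within the MIT-BATF range.

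**Figure D2:**
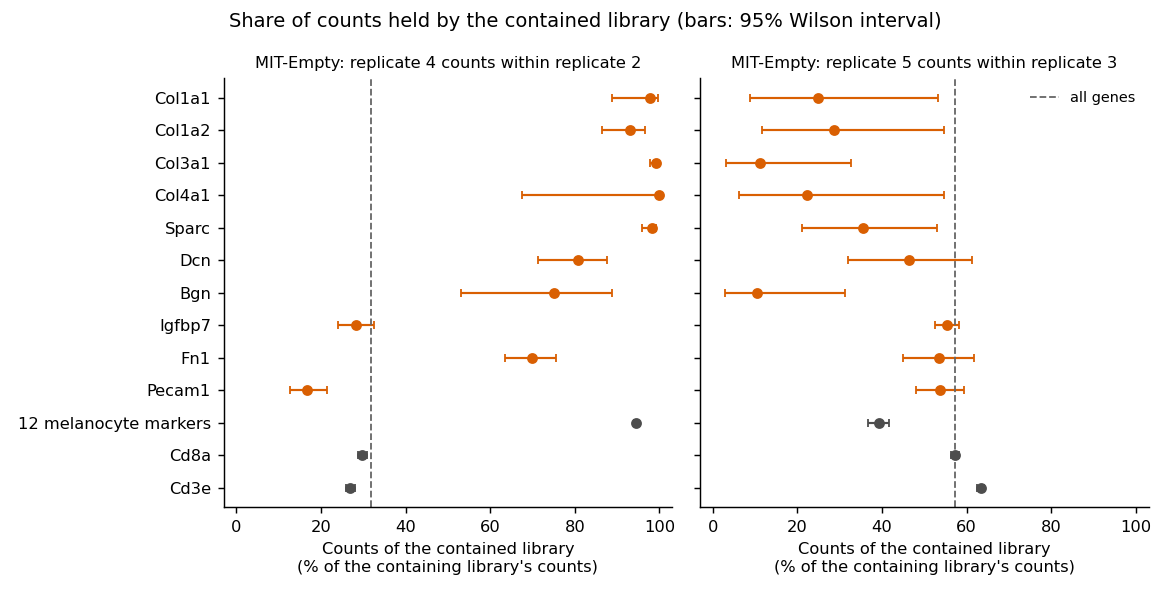
Counts of the contained library as a percentage of the counts in the library that holds it, per gene, with 95% Wilson intervals and a dashed line for all genes, in MIT-Empty replicates 4 within 2 and 5 within 3. In the first pair the fibrillar collagens, Sparc and the 12 melanocyte markers lie at 93.1% or higher while Igfbp7 lies at 28.2%, and in the second pair Igfbp7 lies at 55.3%, near the line at 57.3%.

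The same held more widely among matrix genes. Of 80 other genes of the matrix and stromal lists with at least 10 counts in MIT-Empty replicate 2, 26 (32.5%) had at least 80% of them in replicate 4, against 472 of 12600 genes overall (3.75%). The cutoffs of 10 counts and 80% were set after the counts were seen, and the lists were compiled with earlier results known. Among these genes were Serpinh1, the collagen chaperone, with 58 of 63 counts, Mmp2, a gelatinase, with 24 of 24, and Sparcl1, a relative of Sparc, with 119 of 139. Postn, which encodes periostin, had 14 of 14 counts there. In the other MIT-Empty pair, replicate 5 within replicate 3, 5 of 70 listed genes (7.14%) reached that share, against 3.2% of all genes. Such genes were not limited to MIT-Empty. Of those in MIT-BATF replicate 3, 11 of 63 (17.5%, against 5.95% of all genes) had that share in replicate 5, and in MIT-BATF replicate 2 it was 2 of 46 (4.35%, against 2.14%) in replicate 4.

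In MIT-Empty the fibrillar collagens and the melanocyte genes were both highest in replicate 4 and next in replicate 2, which contains it. In MIT-BATF, replicate 5 had the highest melanocyte sum, at 33.4 CPM, and the lowest collagen sum, at 0.162 CPM. The collagen sums there were only 3 to 31 counts, with 3 in replicate 5, too few to show whether they go together. The 12 melanocyte markers, which in these tumors can come from B16-F10 cells, summed to 18.3 to 33.4 CPM in MIT-BATF and to 126, 613, 59.4, 1843 and 47.3 CPM in MIT-Empty replicates 1 to 5. Of those in MIT-Empty replicate 2, 94.4% lay in replicate 4, as for the collagens. With shared reads counted once, replicate 2 kept 11 counts of the 3 fibrillar collagen genes and 672 melanocyte counts, so both peaks rest on replicate 4. The ratios that follow are of deposited counts, so those of MIT-Empty replicates 2 and 4 are not separate. For each 100 melanocyte counts there were 4.62, 2.99, 2.36, 2.14 and 0.484 counts of Col1a1, Col1a2 and Col3a1 together in MIT-BATF, and 2.04, 4.61, 3.03, 4.79 and 1.58 in MIT-Empty. These ratios overlapped between the groups, although the collagen counts in most libraries were too few to fix a ratio. Against the 13 macrophage and monocyte markers the same ratio ran from 0.189 to 3.37 in MIT-BATF and from 1.5 to 29.9 in MIT-Empty. Whether melanoma cells, fibroblasts sorted with them or free RNA brought these transcripts was not tested, and fewer cells of a type and less RNA per cell cannot be told apart in bulk samples.

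Igfbp7 followed neither the collagens nor the melanocyte genes. It encodes a secreted protein that binds insulin-like growth factors and is found in vessel walls and matrix. The gene lies on chromosome 5 from 77349240 to 77408041, minus strand, and its end overlaps the neighboring gene Polr2b on the other strand. It had 7, 14, 17, 5 and 11 counts in MIT-BATF and 104, 429, 1202, 121 and 665 counts in MIT-Empty. Every MIT-BATF library, at 0.614, 0.568, 0.394, 0.489 and 0.593 CPM, lay far below every MIT-Empty library, at 12.7, 21.8, 49.2, 19.6 and 55.2 CPM. The means were 0.532 ± 0.0903 CPM in MIT-BATF, against 31.7 ± 19.1 CPM in MIT-Empty, a log2 ratio of -5.90.

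The highest Igfbp7 levels were in MIT-Empty replicates 5 and 3, which as deposited had the lowest melanocyte sums of that group. Replicate 5 lies within replicate 3, however. With shared reads counted once the melanocyte sums were 135, 54.4, 76.1, 1992 and 50.9 CPM in MIT-Empty, so replicate 2 then lay below replicate 3. For each 100 melanocyte counts there were 1.29 to 2.94 Igfbp7 counts in MIT-BATF, and 10.1, 3.55, 82.8, 1.06 and 117 in MIT-Empty, so no fixed ratio to melanocyte RNA held. In the nested pairs Igfbp7 was shared as the average gene was. Replicate 4 held 28.2% (95% Wilson interval 24.2% to 32.6%) of its counts in MIT-Empty replicate 2, and replicate 5 held 55.3% (52.5% to 58.1%) of those in replicate 3, against 31.8% and 57.3% for all genes. With shared reads counted once the levels were 0.659, 0.676, 0.261, 0.526 and 0.637 CPM in MIT-BATF and 13.7, 24.9, 46.3, 21.1 and 59.4 CPM in MIT-Empty. The groups therefore did not overlap under either count, and all counts lay on the protein-coding transcripts. Polr2b, the overlapping neighbor, had 335 to 1278 counts in MIT-BATF and 152 to 634 in MIT-Empty and did not pass the threshold (edgeR, Benjamini-Hochberg adjusted p = 0.335).

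**Figure D3:**
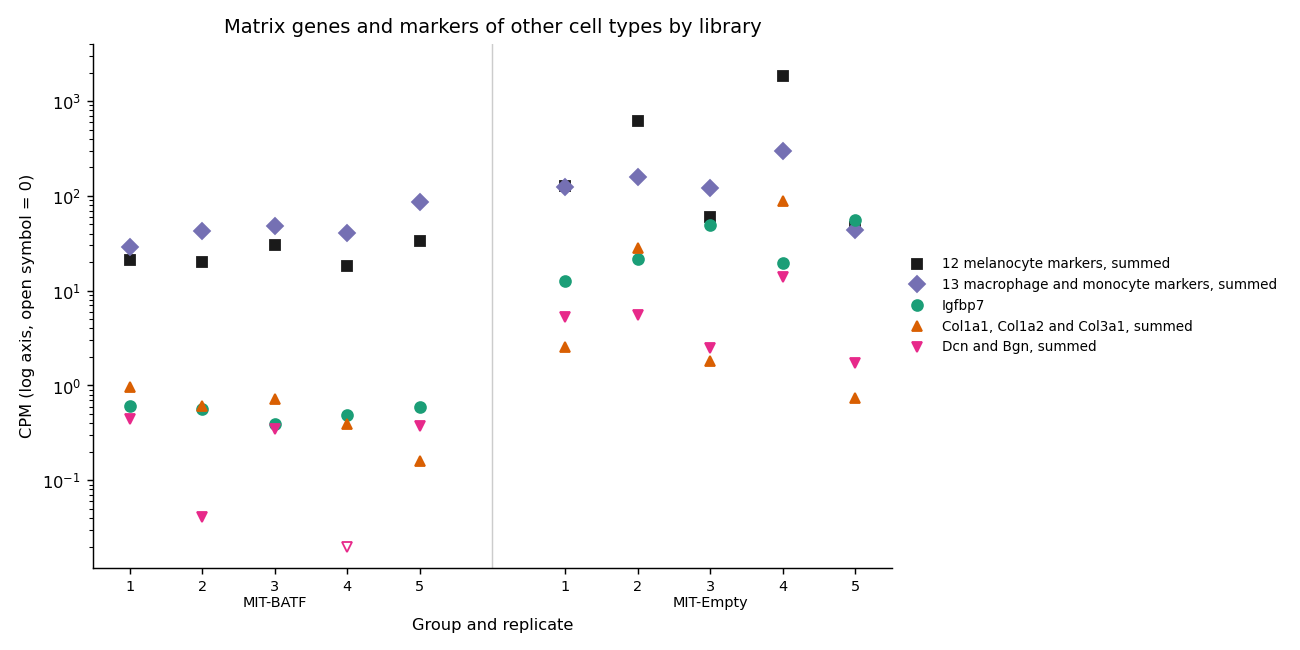
CPM on a log axis in each library for Igfbp7, the summed fibrillar collagens, summed Dcn and Bgn, 12 summed melanocyte markers and 13 summed macrophage and monocyte markers, with open symbols for 0. In MIT-Empty the collagens and the melanocyte sum peak together in replicate 4, at 88.2 and 1843 CPM, whereas Igfbp7 peaks in replicate 5 at 55.2 CPM.

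Dcn and Bgn encode decorin and biglycan, small leucine-rich proteoglycans that bind collagen and TGF-beta. Dcn (chromosome 10, 97479609 to 97518143, plus strand) had 5, 1, 9, 0 and 6 counts in MIT-BATF and 20, 88, 41, 71 and 19 counts in MIT-Empty. Bgn (chromosome X, 73483602 to 73495933, plus strand) had 0, 0, 6, 0 and 1 counts in MIT-BATF and 23, 20, 19, 15 and 2 counts in MIT-Empty. In CPM both genes were lower in every MIT-BATF library than in any MIT-Empty library, though MIT-Empty replicate 5 held only 2 counts of Bgn. Dcn averaged 0.202 ± 0.186 CPM in MIT-BATF, against 4.33 ± 4.16 CPM in MIT-Empty, and Bgn averaged 0.0386 ± 0.0608 CPM in MIT-BATF, against 1.44 ± 1.13 CPM in MIT-Empty.

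Dcn in part resembled the collagens, since replicate 4 held 71 of the 88 counts in MIT-Empty replicate 2. The other MIT-Empty libraries were not empty of it, however. With shared reads counted once Dcn had 5, 1, 3, 0 and 6 counts in MIT-BATF and 20, 17, 22, 71 and 19 counts in MIT-Empty, and the groups still did not overlap in CPM. Bgn had 0, 0, 5, 0 and 1 counts in MIT-BATF and 23, 5, 16, 15 and 2 counts in MIT-Empty on that count, and the highest MIT-BATF library, at 0.218 CPM, lay above the lowest MIT-Empty library, at 0.179 CPM. Of the few Dcn counts in MIT-BATF, 75.3% were assigned to transcripts that are not protein coding, against 2.68% in MIT-Empty.

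Col4a1 encodes a chain of type IV collagen, the network-forming collagen of basement membranes (chromosome 8, 11198423 to 11312826, minus strand). It had 4, 0, 7, 0 and 1 counts in MIT-BATF and 0, 8, 9, 8 and 2 counts in MIT-Empty. The groups overlapped, and at this depth no difference could be seen. No count in MIT-BATF and 25.3% of those in MIT-Empty lay on its protein-coding transcripts. Its partner Col4a2, which shares a promoter region with it, had 3, 1, 2, 1 and 2 counts in MIT-BATF and 0, 21, 4, 21 and 1 counts in MIT-Empty, with 21 of 21 counts of replicate 2 in replicate 4.

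Fn1 encodes fibronectin, an adhesive glycoprotein that integrins bind (chromosome 1, 71585520 to 71653200, minus strand). It had 73, 94, 118, 53 and 81 counts in MIT-BATF and 56, 222, 133, 155 and 71 counts in MIT-Empty. At gene level the groups overlapped, with 2.73 to 6.41 CPM in MIT-BATF and 5.44 to 25 CPM in MIT-Empty. Its transcripts divided these counts unevenly. The transcripts Fn1-207 and Fn1-215, both annotated as retaining an intron, had 66.7, 85.8, 116, 48.6 and 80.2 estimated counts in MIT-BATF and 55.4, 115, 88.8, 48.1 and 46.7 in MIT-Empty, or 4.22 ± 1.21 CPM in MIT-BATF, against 5.58 ± 1.81 CPM in MIT-Empty. All other Fn1 transcripts together had 6, 8.06, 2.01, 4.02 and 1 estimated counts in MIT-BATF and 1, 107, 43.9, 107 and 24.7 in MIT-Empty. Outside Fn1-207 and Fn1-215, Fn1 thus had 8.06 counts or fewer in each MIT-BATF library and in MIT-Empty replicate 1, and its highest CPM was in MIT-Empty replicate 4. The 107 counts of MIT-Empty replicate 2 equal the 107 of replicate 4, which lies within it, and replicate 5 lies within replicate 3. With shared reads counted once, Fn1 at gene level had 73, 41, 37, 53 and 81 counts in MIT-BATF and 56, 67, 61, 155 and 71 in MIT-Empty.

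**Figure D4:**
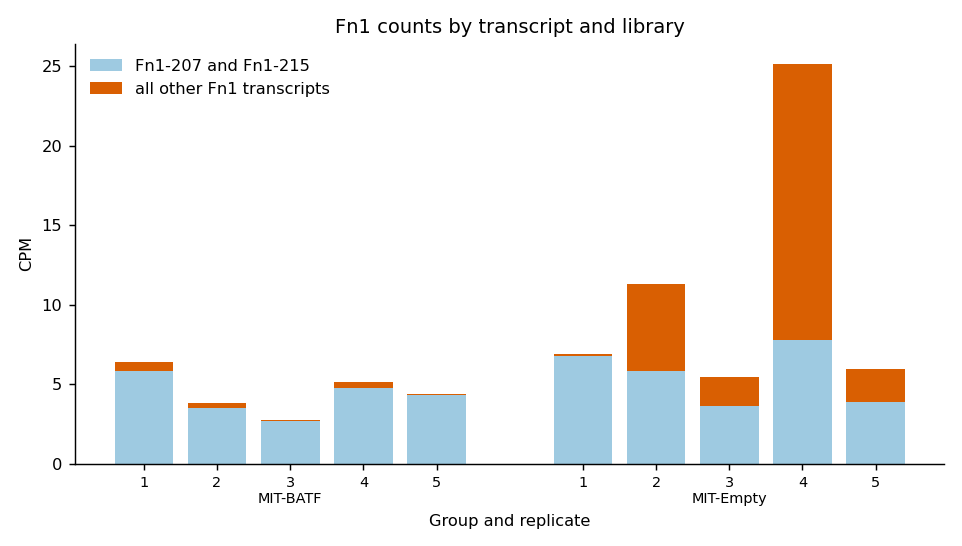
CPM of Fn1 by library, stacked as Fn1-207 with Fn1-215 and all other Fn1 transcripts. The pair of intron-retaining transcripts gives 2.69 to 5.85 CPM in MIT-BATF and 3.63 to 7.78 CPM in MIT-Empty, while the other transcripts reach at most 0.527 CPM in MIT-BATF, against 17.4 CPM in MIT-Empty replicate 4.

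What sets Fn1-207 and Fn1-215 apart is that their last exon runs past a splice site into an intron. Fn1-207 goes on for 1070 intron bases (chromosome 1, 71644477 to 71645546), 50.9% of its length, and Fn1-215 for 873 (71604097 to 71604969), 31.4% of its length. The lines below show 40 exon bases in lower case and the 40 bases that follow in capitals, first in the intron-retaining transcript and then in the protein-coding transcript Fn1-201, where the next exon follows. Sequences are from GENCODE transcripts of GRCm38, 5′ to 3′ on the minus strand. The lines for Fn1-207 and Fn1-215, exon and intron bases together, lie at chr1:71645507-71645586 and chr1:71604930-71605009.
Fn1-207: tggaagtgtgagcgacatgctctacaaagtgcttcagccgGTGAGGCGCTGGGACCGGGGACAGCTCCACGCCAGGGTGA
Fn1-201 at the same exon: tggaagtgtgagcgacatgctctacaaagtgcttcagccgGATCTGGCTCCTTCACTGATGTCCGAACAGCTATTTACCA
Fn1-215: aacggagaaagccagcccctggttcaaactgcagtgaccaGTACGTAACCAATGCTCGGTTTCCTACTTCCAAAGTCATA
Fn1-201 at the same exon: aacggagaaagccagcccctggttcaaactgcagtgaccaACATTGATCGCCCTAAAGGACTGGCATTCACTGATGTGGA
In both retained forms the intron begins with the letters GT, as most introns do. Where reads fell along these transcripts is not held in the values used here, so whether the counts come from the intron or from the exons was not tested. Another intron-retaining form, Fn1-202, is made up of coding-transcript exons over 3396 of its 4022 bases. It had 0, 0, 0, 0 and 1 counts in MIT-BATF and 1, 86, 31, 83 and 9 counts in MIT-Empty. The protein-coding forms held 4.11% of Fn1 counts in MIT-BATF and 11.8% in MIT-Empty.

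Pecam1 encodes CD31, an adhesion molecule of endothelial cells, platelets and leukocytes including T cells (chromosome 11, 106654217 to 106750628, minus strand). It had 143, 181, 365, 94 and 118 counts in MIT-BATF and 105, 283, 294, 47 and 158 counts in MIT-Empty. The groups overlapped, with 8.78 ± 2.37 CPM in MIT-BATF, against 12 ± 2.59 CPM in MIT-Empty, and replicate 4, the library richest in collagen, had the lowest level of its group at 7.6 CPM. Of the Pecam1 counts in MIT-Empty replicate 2, replicate 4 held 16.6% (95% Wilson interval 12.7% to 21.4%), below the 31.8% of all genes. Other endothelial genes were scarce. Cdh5, chosen after its values were seen, the adhesion molecule that defines endothelial junctions, had 0, 1, 1, 0 and 1 counts in MIT-BATF and 1, 1, 1, 0 and 0 counts in MIT-Empty. Others of its list were higher. Cd34 averaged 1.14 ± 0.458 CPM in MIT-BATF, against 1.36 ± 0.934 CPM in MIT-Empty. Egfl7 averaged 1.54 ± 1.39 CPM in MIT-BATF, against 1.52 ± 0.5 CPM in MIT-Empty. The 23 endothelial markers summed to 4.15 to 9.04 CPM in MIT-BATF and 5.56 to 9.37 CPM in MIT-Empty, and of the 2 tested (Cd34 and Egfl7) 0 were called by edgeR, DESeq2 or limma voom and 0 had an unadjusted p under 0.05.

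Levels of different genes can be set side by side only per length, for which the deposited TPM values (transcript abundance per length) were summed per gene. The sums cover transcripts of all types. Transcripts that are not protein coding held 95.9% of Fn1 and 40.4% of Pecam1 counts in MIT-BATF, and 88.2% and 36.3% in MIT-Empty. In MIT-BATF the highest mean was that of Pecam1 at 2.51 ± 0.568 TPM, followed by Fn1 at 1.13 ± 0.193 TPM, Igfbp7 at 0.497 ± 0.0831 TPM and Sparc at 0.173 ± 0.148 TPM, and the other 6 genes had 0.111 TPM or less. In MIT-Empty the highest mean was that of Igfbp7 at 29.9 ± 18.9 TPM, followed by Pecam1 at 3.95 ± 1.24 TPM, Sparc at 3.46 ± 5.09 TPM, Fn1 at 2.08 ± 1.24 TPM, Col3a1 at 2.01 ± 3.21 TPM and Dcn at 1.3 ± 1.23 TPM. In MIT-BATF each of the first 3 genes was above the next by more than their SDs. In MIT-Empty only Igfbp7 stood above its neighbor by more than its SD, and the order below it lay within the spread of the libraries.

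Of the 10 genes, 5 passed the expression filter of the fit over all genes, namely Sparc, Dcn, Igfbp7, Fn1 and Pecam1. Those that are all but absent from MIT-BATF could pass it only through MIT-Empty and so had to differ. As a description, 3 of the 5 (Sparc, Dcn and Igfbp7) were called lower in MIT-BATF, beside 2.43% of 11781 genes tested that were called lower and 2.16% called higher. With shared reads counted once 2 of them, Dcn and Igfbp7, were called lower, beside 0.683% of 11131 genes called lower and 0.575% called higher. In 4 of the 10 genes every MIT-BATF library was below every MIT-Empty library in CPM, beside 2.12% of 27420 genes with a count. Because the same contrast was known when the genes were chosen, nothing is read from these shares.

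Other genes of the matrix were taken whole from lists and tested in edgeR (quasi-likelihood, p-values adjusted after Benjamini and Hochberg over all genes). Of 206 annotated genes in the 9 matrix and stromal lists, 42 passed the filter. Of these 5 were called lower and 0 higher in MIT-BATF, beside 2.43% of all genes tested called lower and 2.16% called higher. The median log2 fold change was -0.18 beside 0.01 over all genes tested. The 5 were Spp1, Ccn4, Nid1, P4ha2 and Plod2. In MIT-BATF Nid1 reached at most 0.139 CPM and Ccn4 at most 0.689 CPM. Both could pass the filter only through MIT-Empty, so their calls are given as a description. DESeq2 also called 5 lower, beside 480 of 11781 genes, and limma voom 4, beside 286. With shared reads counted once only 2 remained below 0.05, Spp1 and Ccn4, beside 0.683% of 11131 genes called lower.

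Spp1 encodes osteopontin, a secreted adhesive phosphoprotein made by macrophages, tumor cells and some T cells. It was at 14, 10.2, 31.6, 8.12 and 63.5 CPM in MIT-BATF and at 166, 167, 118, 160 and 142 CPM in MIT-Empty, with no overlap. Its log2 fold change was -2.55 (SE 0.452, edgeR adjusted p = 0.00475, and 0.0148 with shared reads counted once). Ccn4 encodes WISP1, a matricellular protein of the CCN family, and had 1, 17, 11, 3 and 1 counts in MIT-BATF and 31, 76, 82, 16 and 39 counts in MIT-Empty. Its levels of 2.59 to 3.85 CPM in MIT-Empty were nearly even across libraries, and its log2 fold change was -3.50 (SE 0.53, edgeR adjusted p = 0.00173, and 0.0163 with shared reads counted once). Like Igfbp7, and unlike the collagens, these genes were not concentrated in MIT-Empty replicate 4, which held 30.1% of the Spp1 counts and 21.1% of the Ccn4 counts of replicate 2.

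Among the genes that process collagen, P4ha2, a prolyl hydroxylase, averaged 0.67 ± 0.283 CPM in MIT-BATF, against 3.49 ± 2.11 CPM in MIT-Empty (log2 fold change -2.33, edgeR adjusted p = 0.0227). Plod2, a lysyl hydroxylase, averaged 6.51 ± 1.35 CPM in MIT-BATF, against 14.9 ± 7.74 CPM in MIT-Empty (log2 fold change -1.17, edgeR adjusted p = 0.0327). Neither passed with shared reads counted once (adjusted p = 0.227 and 0.224 by the same test). Without MIT-Empty replicate 4, and without some other single libraries, both also lost the call, with edgeR adjusted p up to 0.0631 for P4ha2 and 0.0845 for Plod2. The other 12 tested genes of this list, among them the abundant Ppib at 305 ± 48.3 CPM in MIT-BATF, against 305 ± 32.6 CPM in MIT-Empty, were not called. Nid1, a basement membrane linker, had 1, 2, 6, 0 and 1 counts in MIT-BATF and 6, 18, 31, 15 and 13 counts in MIT-Empty (log2 fold change -3.78, edgeR adjusted p = 0.00239), and did not pass the filter once shared reads were counted once. The laminin genes Lamc1 and Lamb3 and the agrin gene Agrn were tested and not called (edgeR adjusted p = 0.282, 0.357 and 0.232), with log2 fold changes of 0.53, 0.41 and -1.14.

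In MIT-BATF, replicate 5 held 86.6% of the Spp1 counts of replicate 3, and it also had the highest sum of macrophage and monocyte markers of its group, at 85.8 CPM. The part of macrophages in the Spp1 level was not tested.

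The remaining collagen chains gave little. Of 40 genes only Col22a1 and Col26a1 passed the filter, and neither was called by edgeR, DESeq2 or limma voom or had an unadjusted p under 0.05. Of 18 other proteoglycan genes 2 were tested and 0 called by edgeR, with 0 at an unadjusted p under 0.05 and 1 by DESeq2 and by limma voom, where neither called a gene. Srgn, the intracellular proteoglycan of cytotoxic granules, was by far the most abundant at 2486 ± 432 CPM in MIT-BATF, against 1879 ± 420 CPM in MIT-Empty (log2 fold change 0.40, edgeR adjusted p = 0.287). Of 22 proteases and inhibitors 6 were tested and 0 called, with 3 at an unadjusted p under 0.05 by edgeR, 2 by DESeq2 and 0 by limma voom. Timp2, an inhibitor of such proteases, averaged 2.99 ± 1.96 CPM in MIT-BATF, against 7.64 ± 6.85 CPM in MIT-Empty. The elastase gene Mmp12 varied widely in MIT-BATF, with 123, 109, 1341, 18 and 1284 counts there and 71, 130, 209, 49 and 119 counts in MIT-Empty.

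Markers of fibroblasts and pericytes were scarce in both groups. The 19 genes summed to 3.65 to 4.64 CPM in MIT-BATF and to 5.75 to 11.5 CPM in MIT-Empty, the highest in replicate 4. The tested genes were Pdpn (podoplanin), at 0.592 ± 0.524 CPM in MIT-BATF, against 1.6 ± 1.4 CPM in MIT-Empty, Serpinf1, at 1.21 ± 0.55 CPM in MIT-BATF, against 1.52 ± 0.335 CPM in MIT-Empty, and the actin-binding Tagln, at 1.19 ± 1.18 CPM in MIT-BATF, against 0.752 ± 0.547 CPM in MIT-Empty. Of genes too low to test and chosen after their values were seen, Pdgfrb, a defining receptor of pericytes, had 0, 1, 0, 1 and 0 counts in MIT-BATF and 1, 1, 6, 1 and 6 counts in MIT-Empty, and Dpt, a fibroblast matrix gene, had 0 counts in all 5 MIT-BATF libraries and 10, 11, 2, 11 and 2 counts in MIT-Empty. Over all 19 genes there were 460 counts in MIT-BATF and 477 in MIT-Empty, so Pdgfrb and Dpt do not stand for the list. Of the 3 tested genes 0 were called by edgeR, DESeq2 or limma voom, and 0 had an unadjusted p under 0.05. The 13 macrophage and monocyte markers summed to 28.6 to 85.8 CPM in MIT-BATF and 44.1 to 295 CPM in MIT-Empty. Of 11 tested, edgeR called 4 lower in MIT-BATF, beside 2.43% of all genes tested. With shared reads counted once it called 1 lower, beside 0.683%. Apoe, which encodes a lipid carrier, averaged 1.89 ± 1.13 CPM in MIT-BATF, against 19.1 ± 18.3 CPM in MIT-Empty (log2 fold change -3.35, edgeR adjusted p = 0.0071), and C1qc, Lyz2 and Ms4a7 were the others called. C1qc, Lyz2 and Ms4a7 lost the call in 6, 6 and 8 of the fits that left out 1 library. With a replicate block they lost it too (edgeR adjusted p = 0.0841, 0.0972 and 0.137). Of the 8 melanocyte markers tested all had a negative log2 fold change. By edgeR 7 were called lower in MIT-BATF, by DESeq2 8 and by limma voom 0, and with shared reads counted once edgeR called 2, Tyrp1 and Mlana. Over all genes tested edgeR called 2.43% lower, and 0.683% with shared reads counted once, and DESeq2 called 480 of 11781 lower. Tyrp1, a melanin enzyme, averaged 3 ± 1.23 CPM in MIT-BATF, against 211 ± 318 CPM in MIT-Empty (edgeR adjusted p = 0.00497, and 0.0608 with a replicate block). Mlana, a melanosome protein, had an edgeR adjusted p of 0.00597, and of 0.0309 with a replicate block. Gpr143, a pigment cell receptor chosen after its values were seen, had 0 counts in every MIT-BATF library and 0, 19, 1, 19 and 0 in MIT-Empty. The part of these cells in the levels of the 10 genes was not tested.

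Of 22 receptor genes for collagen and matrix, 16 were tested. EdgeR called 1 higher and 1 lower in MIT-BATF, beside 2.16% of all genes tested called higher and 2.43% called lower. With shared reads counted once, 12 were tested and 0 were called, and Ddr2 did not pass the filter. Itga1, the collagen-binding integrin subunit CD49a, was at 7.11, 9.61, 8.37, 8.81 and 6.14 CPM in MIT-BATF and at 0.98, 2.33, 2.54, 4.36 and 0.747 CPM in MIT-Empty, with no overlap. Its log2 fold change was 1.90 (SE 0.381, edgeR adjusted p = 0.0109), and with shared reads counted once it was 1.88 (edgeR adjusted p = 0.0608). Ddr2, a collagen receptor kinase of fibroblasts, had 0, 13, 11, 5 and 2 counts in MIT-BATF and 7, 106, 19, 97 and 16 counts in MIT-Empty. At 0.527 CPM or less in MIT-BATF, Ddr2 could pass the filter only through MIT-Empty, so its call is given as a description. Its log2 fold change was -4.01 (SE 0.91, edgeR adjusted p = 0.0208), and the call was lost without MIT-Empty replicate 4, without MIT-Empty replicate 2 or without MIT-BATF replicate 3, with edgeR adjusted p up to 0.0605. Nor was Ddr2 called by limma voom (adjusted p = 0.121). Neither the collagen receptor Lair1, at 1.88 ± 0.503 CPM in MIT-BATF, against 4.07 ± 1.38 CPM in MIT-Empty, nor the hyaluronan receptor Cd44, at 164 ± 19.8 CPM in MIT-BATF, against 119 ± 23.8 CPM in MIT-Empty, was called (edgeR adjusted p = 0.0851 and 0.119).

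The 10 protein-coding genes whose pattern was most like the summed level of the members, among 10562 with a mean of at least 1 CPM, had Pearson r from 0.951 to 0.982 over 10 libraries. The leading ones were Hmgn3, a nucleosome-binding protein, Gstm1, a glutathione transferase, and Tnni1, a troponin. Hmgn3 was at 0 to 0.139 CPM in MIT-BATF and 2.2 to 16.2 CPM in MIT-Empty, highest in replicate 4. The others were Qser1, F13a1, Prim2, Ccdc163, Nedd4l, Mastl and Dzip3. The 10 points share 2 groups and 4 nested pairs, so r is a description of these libraries.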

How the data were processed

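Estimated counts and TPM values per transcript were deposited, which the authors made with Salmon after the nf-core/rnaseq pipeline on mm10. For Salmon no version is given in the sources used here. By stable transcript ID 305 of 112092 transcripts had no match in GENCODE vM21 and were left out. Counts and TPM were summed over the transcripts of each gene, and estimated counts were then rounded. Strand is not marked, so overlapping genes cannot be separated. Numbers in the table names (0, 1, 3, 10 and 30) have no stated meaning and were not used. Genes kept by filterByExpr were tested with edgeR 4.0.16 (quasi-likelihood, TMM, group as the only term, Benjamini-Hochberg) in R 4.3.3, with DESeq2 1.42.0 and limma 3.58.1 as alternatives. The fit was tested on simulated data. Members and lists were chosen with earlier results of these data known. A rule selected all 10 members, per list up to 4 genes with the smallest p, calls against the list's direction and, for marker lists, the 2 most abundant genes, and the 10 genes most like the summed members (log2 of CPM plus 0.25). Of the list genes it selected, the text gives most of those called and some of the others. Serpinh1, Mmp2, Sparcl1, Postn, Col4a2, Cdh5, Pdgfrb, Dpt, Gpr143, Ppib, Cd8a and Cd3e are not among them, and were picked with their values known. Fits on protein-coding transcripts only were added after seeing the data. The study's methods give 1 mouse per library, and whether the nested libraries depart from this was not examined. Nested pairs make p-values too small if they share reads. Tables and figures used Python 3.11.15, pandas 2.3.3, scipy 1.17.1 and matplotlib 3.10.9.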

Additional observations from a re-analysis of the deposited data

Results flagged for a closer look

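Each of the 10 genes, their sum, the sum of the 3 fibrillar collagens and the sum of each of 14 gene lists was examined for a single library far from the other 4 of its group, in 52 groups of values, by Dixon's ratio of the gap to the range against a critical value of 0.71. There were 3 such values, where chance gives about 1 in 20 groups. The 26 genes that process collagen summed to 646.6 CPM in MIT-Empty replicate 4, where the other MIT-Empty libraries lay between 533 and 564 CPM. The 19 fibroblast and pericyte markers summed to 11.5 CPM in MIT-Empty replicate 4, where the other MIT-Empty libraries lay between 5.75 and 6.51 CPM. The 23 endothelial markers summed to 9.04 CPM in MIT-BATF replicate 1, the library with 33.2% mitochondrial counts, where the other MIT-BATF libraries lay between 4.15 and 5.54 CPM. The collagen genes themselves did not meet this criterion in MIT-Empty, where replicate 2, which contains replicate 4, was high as well.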

How the results depend on the processing

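The count of genes called over all genes was 540 as reported, and 916 by DESeq2, 903 without a filter, 339 with library totals alone, 140 with shared reads counted once, 96 without the contained libraries, 15 without the containing libraries and 101 with protein-coding transcripts only and shared reads counted once. Of the matrix and stromal list genes 5 were called as reported, and 25 without a filter, 2 at a mean count of at least 50, 2 with shared reads counted once, 1 without the contained libraries, 0 without the containing libraries, 3 with protein-coding transcripts only and 2 with these and shared reads counted once. Leaving out single libraries gave 287 to 772 calls over all genes, the lowest without MIT-Empty replicate 2 and 321 without MIT-BATF replicate 2, and 3 to 10 among list genes, with 3 without MIT-Empty replicate 4, 8 without MIT-Empty replicate 1 and 10 without MIT-BATF replicate 1. A replicate block gave 474 calls over all genes and 3 among list genes. The deviations of same-numbered libraries correlated at 0.143, -0.024, 0.255, -0.055 and 0.042 for replicates 1 to 5. Of the 5 pairs 2, those of replicates 1 and 3, correlated best with their own number. With nested libraries among them, these values cannot decide whether same-numbered libraries are paired. The summed members differed by -82.3 CPM (MIT-BATF minus MIT-Empty) as reported. The difference ran from -96.3 to -56.8 CPM over the fits that left out 1 library and was -54 CPM without the contained libraries. Depth limits what can be said of Col1a1, Col3a1, Col4a1, Dcn and Bgn, which had fewer than 10 counts in every MIT-BATF library.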

Other observations

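Of 14 listed markers of other blood cells 6 were tested. By edgeR with Benjamini-Hochberg adjustment 2 were called higher in MIT-BATF, beside 2.16% of all genes tested. With shared reads counted once 1 was called higher, beside 0.575%. The globin genes tested were not called (edgeR adjusted p = 0.202 to 0.558). Xcr1, a chemokine receptor, averaged 11.4 ± 2.59 CPM in MIT-BATF, against 2.75 ± 0.815 CPM in MIT-Empty (log2 fold change 2.06, edgeR adjusted p = 0.00067, and 0.00911 with shared reads counted once). Cd79b, a B cell receptor component, averaged 3.2 ± 0.967 CPM in MIT-BATF, against 0.932 ± 0.343 CPM in MIT-Empty (log2 fold change 1.79, edgeR adjusted p = 0.0175, and 0.128 with shared reads counted once). The globin gene Hba-a2 had 0, 5880, 2638, 3 and 0 counts in MIT-BATF and 0, 234, 774, 234 and 0 counts in MIT-Empty, so red cell RNA was high in MIT-BATF replicates 2 and 3 while their contained libraries, replicates 4 and 5, held almost none of it. In MIT-Empty replicate 2, by contrast, all 234 Hba-a2 counts lay in replicate 4, as with the collagens.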
